A study of Mus musculus with 120 samples.

Results

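Genes for intermediate filament proteins were followed in single cells of the mouse endolymphatic sac, part of the inner ear, 8 of the 48371 gene symbols measured. They were taken by name and not by their values: the simple keratins Krt7, Krt8, Krt18, Krt19 and Krt23, and Vim, Nes and Lmna. Cells came from embryos at E14.5 and were profiled by Smart-seq2, which sequences whole transcripts of 1 cell. One group was heterozygous for the Sox9Y440X allele (Sox9Y440X/+, 62 cells) and the other was wild-type (WT, 58 cells). No further allele or treatment is named for either group. The number of animals behind the cells is not given in the sources used here and no cell is assigned to one, so each genotype counted as 1 sample, no test was run, and every SD is a spread over cells. Expression was in FPKM, which corrects fragment numbers for the length of the transcript and the depth of the cell. Detection meant a value of 1 FPKM or more. Sox9 reached that level in 36 of 37 Sox9Y440X/+ and 29 of 56 WT epithelium-like cells. FPKM sums both alleles, so it does not check the point change.

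Intermediate filaments are cytoskeletal polymers built in different tissues from different proteins. Keratin filaments form only when a type I keratin pairs with a type II keratin, and simple, single-layered epithelia typically use KRT8 (type II) with KRT18 (type I), joined by KRT7 (type II) and KRT19 (type I). Vimentin is the filament protein typical of connective tissue cells, nestin is best known from neural progenitors, and lamins A and C, both made from Lmna, line the inside of the nuclear envelope. The sac is an endolymph-filled pouch joined to the inner ear by a duct, and part of its epithelium consists of ionocytes, cells that move ions and acid and depend on the transcription factor FOXI1. SOX9 is a transcription factor of the SoxE group.

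Cells with fewer than 1000 genes in their label were left out, which removed 4 Sox9Y440X/+ cells and 1 WT cell and left 115 of 120. They were sorted into classes by clustering from which every keratin, vimentin, nestin and lamin gene had been removed, so the values below did not name the classes. Sox9Y440X/+ cells comprised 37 epithelium-like and 21 mesenchyme-like cells, and WT cells 56 epithelium-like cells and 1 mesenchyme-like cell. The epithelium-like cells held 4 to 14 of 15 epithelium markers per cell in Sox9Y440X/+ and 4 to 14 in WT, against 0 or 1 in the Sox9Y440X/+ mesenchyme-like cells. Those mesenchyme-like cells held 1 to 13 of 14 mesenchyme markers (median 8) and 0 to 10 of 11 endothelium markers (median 0). The class may thus not be connective tissue alone. Sox9Y440X/+ epithelium-like cells had a median of 3959 detected genes (range 1717 to 5564), against 2822.5 (1101 to 5429) in WT. Xist, an X-linked RNA made in female cells, was detected in 0 of 37 Sox9Y440X/+ and 34 of 56 WT epithelium-like cells. The 22 WT cells without Xist were therefore also compared alone, and these values are given beside the members that moved.

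The members lie on 4 chromosomes of GRCm38. Krt8 (15:101996698-102004482, minus strand) and Krt18 (15:102028180-102032027, plus strand) are neighbours that point away from each other, with 23697 bases between their annotated starts. Krt7 lies on the same chromosome (15:101411043-101430313, plus strand), and Krt19 (11:100140810-100148665) and Krt23 (11:99477974-99493137) lie on chromosome 11, both on the minus strand. Vim is at 2:13573927-13582826 (plus strand), Nes at 3:87971078-87980451 (plus strand) and Lmna at 3:88480147-88509956 (minus strand). The annotation places Gm36026 over Krt8 and Gm671 over Krt7 on the opposite strand, and reads of the partners cannot be told apart without strand. Reads of Krt8 can also fall on its near-identical copy Krt8-ps, which reached at most 3.70 FPKM in Sox9Y440X/+ and 4.34 FPKM in WT epithelium-like cells, far below Krt8 itself.

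Promoter sequences of RefSeq (GRCm38.p6, 250 bases before to 50 bases after the start) were found for 7 of the 8 members, with Krt19 the one not matched. Those of the 2 type II keratins, of Krt18 and of Vim are shown because, with Krt19, these genes had the largest differences between the classes below. Capitals mark TATAA, searched on both strands, where a match and its reverse complement may overlap. The windows are 15:102004293-102004592 (minus strand) for Krt8, 15:101412153-101412452 (plus strand) for Krt7, 15:102027966-102028265 (plus strand) for Krt18 and 2:13574061-13574360 (plus strand) for Vim.
Krt8: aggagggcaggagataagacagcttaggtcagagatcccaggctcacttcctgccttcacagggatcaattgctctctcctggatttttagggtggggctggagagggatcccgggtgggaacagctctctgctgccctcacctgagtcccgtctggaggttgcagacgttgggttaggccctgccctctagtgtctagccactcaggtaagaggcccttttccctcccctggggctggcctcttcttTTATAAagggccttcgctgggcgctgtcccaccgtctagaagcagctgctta
Krt7: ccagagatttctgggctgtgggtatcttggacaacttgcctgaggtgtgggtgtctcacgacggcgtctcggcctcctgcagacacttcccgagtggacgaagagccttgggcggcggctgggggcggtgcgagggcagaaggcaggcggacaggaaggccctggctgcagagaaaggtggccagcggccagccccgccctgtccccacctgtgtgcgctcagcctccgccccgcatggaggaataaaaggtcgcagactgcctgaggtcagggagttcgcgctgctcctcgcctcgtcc
Krt18: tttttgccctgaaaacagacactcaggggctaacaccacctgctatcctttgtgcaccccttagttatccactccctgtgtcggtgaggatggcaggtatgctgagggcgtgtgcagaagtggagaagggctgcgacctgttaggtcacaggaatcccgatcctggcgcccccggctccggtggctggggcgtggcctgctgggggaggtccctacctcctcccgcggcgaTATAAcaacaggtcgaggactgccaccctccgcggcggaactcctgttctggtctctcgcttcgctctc
Vim: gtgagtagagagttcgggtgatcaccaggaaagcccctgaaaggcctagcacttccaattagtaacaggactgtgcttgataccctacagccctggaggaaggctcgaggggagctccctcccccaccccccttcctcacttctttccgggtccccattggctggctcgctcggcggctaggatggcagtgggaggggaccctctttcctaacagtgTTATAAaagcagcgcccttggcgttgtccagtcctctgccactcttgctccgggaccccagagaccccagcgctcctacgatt
TATAA was present in the Krt8, Krt18 and Vim windows and in 24.9% of 32851 promoters of the same length. Its place differed, with matches beginning at bases -2 and -1 from the start in Krt8, -19 in Krt18 and -33 and -32 in Vim. The Krt7 window held none, but held GGGCGG at 4 places, a run of letters found in 35.7% of promoters. CCAAT occurred at 2 places in the Vim window and in 37.4% of promoters. ACAAT, the core letters that SOX proteins are known to bind, was in none of these 4 windows, was in those of Krt23, Nes and 1 of the 2 Lmna starts, and was in 31.02% of promoters. A match is a description of letters and no evidence of binding.

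The first comparison asked how the filament genes divide the epithelium-like from the mesenchyme-like cells. It could be made in Sox9Y440X/+ cells only, since WT had 1 mesenchyme-like cell. Keratins were found mainly in the epithelium-like cells and vimentin was highest in the mesenchyme-like cells. Krt18, Krt7, Krt19, Nes, vimentin and lamin A/C overlapped between the classes, and the Krt8 range of each class is given below. Differences are of mean log2(FPKM + 1), and a difference was counted when it reached 1 unit, which is 2-fold at levels well above the added 1. Genes entered the comparison when at least 25% of cells in either class had them. Of the 7 members that did, 5 were higher and 1 was lower in epithelium-like cells by that measure, against 24.9% higher and 12.9% lower of 6620 genes. The median difference of those genes was 0.27.

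Krt8 ranged over 139, 1090 and 3432 FPKM (lowest, median, highest) in the 37 Sox9Y440X/+ epithelium-like cells, against 0, 0 and 7.01 in the 21 mesenchyme-like cells. The difference was 9.86 (SD over cells 1.11 and 0.66), larger than that of 99.98% of the genes tested. Krt18, its type I partner, had 0, 1196 and 2810 FPKM in epithelium-like cells and 0, 0 and 441 FPKM in mesenchyme-like cells, a difference of 8.72. It was detected in 36 of 37 epithelium-like and 3 of 21 mesenchyme-like cells. Krt7 was detected in 30 of 37 epithelium-like cells, with a median of 23.3 and a highest value of 79.7 FPKM, and in 0 of 21 mesenchyme-like cells, which allows a share of up to 14.3% of cells. Krt19 was detected in 25 of 37 epithelium-like cells, with a median of 113 and a highest value of 910 FPKM, and was listed at 0 in all 21 mesenchyme-like cells.

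Vimentin ran the other way. It had 0, 33.6 and 170 FPKM in epithelium-like cells and 2.95, 259 and 1241 FPKM in mesenchyme-like cells, and was detected in 21 of 37 and 21 of 21 cells. The difference was -4.23 (3.51 ± 3.22 against 7.74 ± 1.77), with the upper epithelium-like cells reaching into the mesenchyme-like range. The value of 1241 FPKM was from cell 10, where Col1a2 was listed at 0. Lmna was higher in the epithelium-like cells by 2.61, with 0, 100.2 and 568 FPKM against 0, 16.2 and 170 FPKM. Nes was low in both classes, detected in 13 of 37 and 4 of 21 cells, with a difference of 0.58. The single WT mesenchyme-like cell had 413 FPKM of Vim, 9.38 FPKM of Lmna and no keratin or Nes detected.

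**Figure D1:**
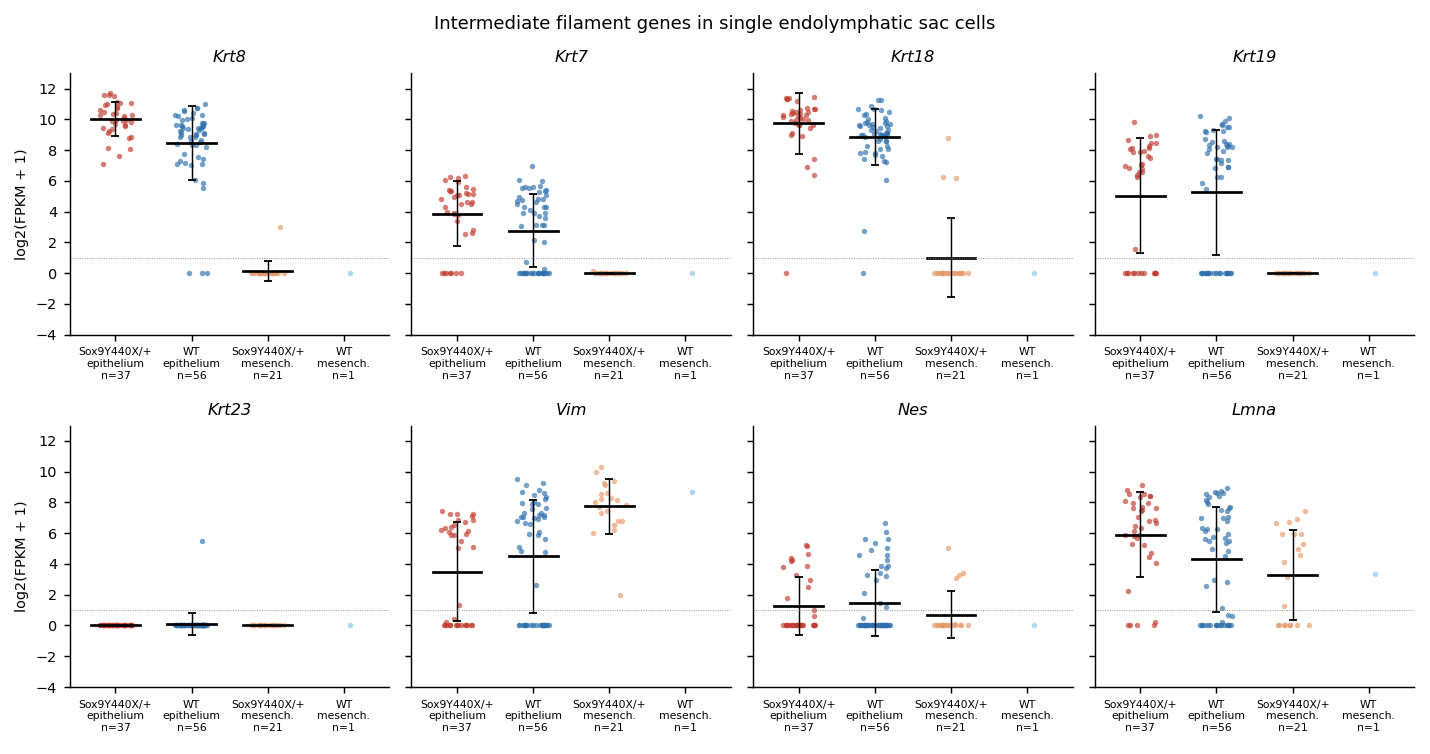
Level of each of the 8 genes in single cells on the log2(FPKM + 1) axis, in Sox9Y440X/+ and WT epithelium-like cells (n = 37 and 56) and Sox9Y440X/+ and WT mesenchyme-like cells (n = 21 and 1). Points are cells, bars the mean, whiskers the SD over cells (drawn also where it runs below 0), and the dotted line is an FPKM of 1. Krt8 and Krt18 fill the epithelium-like groups, Vim fills the mesenchyme-like group and splits the epithelium-like cells, and Krt23 appears in 1 WT cell.

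The keratin to vimentin balance put nearly every cell on the side of its class. Vim exceeded the summed keratins in 0 of 37 Sox9Y440X/+ and 0 of 56 WT epithelium-like cells, and in 20 of 21 Sox9Y440X/+ mesenchyme-like cells and the WT one. Keratin was detected in 4 mesenchyme-like cells, each with a single keratin. Cell 12 had 441 FPKM of Krt18, cell 55 had 74.4 and cell 31 had 70.8, while cell 34 had 7.01 FPKM of Krt8. These 4 cells held 6 to 12 of 14 mesenchyme markers and 0 or 1 of 15 epithelium markers, and none held both a type I and a type II keratin. Cell 12 was the one whose keratin exceeded its Vim of 173 FPKM, and it had 1270 genes, the fewest among the Sox9Y440X/+ mesenchyme-like cells.

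The second comparison set Sox9Y440X/+ against WT within the epithelium-like cells. Krt8 was higher in Sox9Y440X/+ cells, also in each subset given below. Its partner Krt18 and vimentin differed by 0.87 and -0.98 in the pooled cells, both short of the limit of 1. Both passed it in Foxi1-negative cells. Krt19 and Nes differed by about -0.2 in the pooled cells. Of the 7 members tested, Krt8, Krt7 and Lmna were higher by at least 1 unit and none was lower, against 13.5% higher and 2.2% lower of 5957 genes. The whole distribution was shifted, with a median difference of 0.36 over all genes tested and 72.8% of genes above 0, beside the higher number of genes per Sox9Y440X/+ cell. The part of gene number in the members' differences was examined in cells of 2500 to 5500 genes.

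Krt8 had 139, 1090 and 3432 FPKM (lowest, median, highest) in Sox9Y440X/+ epithelium-like cells, against 0, 547 and 2030 FPKM in WT. Every Sox9Y440X/+ cell had it, as did 53 of 56 WT cells. The groups overlapped, and the difference was 1.53 (SD over cells 1.11 and 2.39), larger than that of 96.7% of the genes tested. The ratio of mean FPKM was 2.06. The difference was 1.32 in cells of 2500 to 5500 genes, 1.54 against WT cells without Xist and 1.02 in Foxi1-negative cells. The value in Foxi1-negative cells was larger than that of 79.1% of the genes tested there, of which 21.5% were higher by at least 1 unit. Within the 3 clusters that held at least 5 cells of each genotype it was 2.44 (cluster 1, led by Foxi1 and Atp6v1c2), 1.40 (cluster 3, led by Aldh1a1) and 1.29 (cluster 6, led by Fxyd3 and Spp1). In that order these were larger than 96.4%, 92.6% and 83.8% of the genes tested in the cluster. The shares of genes higher by at least 1 unit were 21.4%, 15.5% and 23.9%.

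Krt18 had 0, 1196 and 2810 FPKM in Sox9Y440X/+ cells and 0, 550.1 and 2506 FPKM in WT cells, a difference of 0.87. In Foxi1-negative cells it was 1.30, larger than that of 88.7% of the genes tested there, beside 1.02 for Krt8. By cluster the Krt18 difference was 1.42 in cluster 3 and 1.49 in cluster 6. It was -1.48 in cluster 1, where a single Sox9Y440X/+ cell was listed at 0. Krt7 had a median of 23.3 FPKM and was detected in 30 of 37 Sox9Y440X/+ cells, against 9.36 FPKM and 34 of 56 in WT. Its difference of 1.09 was 0.01 against the 22 WT cells without Xist, of which 17 had Krt7, and 0.56 in cells of 2500 to 5500 genes. Krt7 thus did not keep its call in either subset. Across the 93 cells Krt7 also had the largest correlation with gene number among the members (Pearson 0.35).

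Krt19 was detected in 25 of 37 Sox9Y440X/+ cells (median 113 FPKM, highest 910.0) and 36 of 56 WT cells (median 152 FPKM, highest 1217). The difference of -0.21 changed sign with the cells used, being 0.65 against WT cells without Xist and -1.08 in cells of 2500 to 5500 genes. Krt23, a type I keratin, was detected in 0 of 37 Sox9Y440X/+ cells, which allows a share of up to 8.11%, and in 1 of 56 WT cells, at 44.4 FPKM.

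Vimentin was detected in 21 of 37 Sox9Y440X/+ cells, with a median of 33.6 and a highest value of 170 FPKM, and in 35 of 56 WT cells, with 64.8 and 752 FPKM. The cells fell into those without and those with vimentin, and the Sox9Y440X/+ cells with it stopped well short of the highest WT cells. The difference was -0.98, and 2.33% of genes had a lower one. It was -1.19 against WT cells without Xist, -1.57 in Foxi1-negative cells and -2.0 in cells of 2500 to 5500 genes. Within clusters it was -3.83 in cluster 6, where 2 of 7 Sox9Y440X/+ and 15 of 20 WT cells had Vim, and -1.58 in cluster 3, where 10 of 11 and 16 of 16 had it. It was 1.67 in cluster 1, where 2 of 5 and 2 of 8 cells had it. Mesenchyme markers were few in epithelium-like cells. The median was 1 marker of 14 per cell in those with and those without Vim in both genotypes, with a highest number of 3 in Sox9Y440X/+ and 2 in WT. The summed level of the 14 markers ranged from 0 to 474 FPKM in Sox9Y440X/+ and from 0 to 1354 FPKM in WT, and Pdgfra, Lum, Twist1, Twist2 and Col6a1 were below an FPKM of 1 in all 93 cells. The 2 mesenchyme markers found in enough cells to be tested were both higher in Sox9Y440X/+, Col1a2 by 1.01 (detected in 10 of 37 Sox9Y440X/+ and 3 of 56 WT cells) and Fstl1 by 1.57 (24 of 37 and 25 of 56). In cluster 3, where Vim differed by -1.58, they differed by 2.90 and 2.49. Their part in the members' differences was not tested.

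Lmna had a median of 100.2 FPKM and was detected in 32 of 37 Sox9Y440X/+ cells, against 44.7 FPKM and 37 of 56 in WT. The difference of 1.59 depended on which cells were compared. It was 1.78 in Foxi1-negative cells, larger than that of 96.0% of the genes tested there. By cluster it was 1.74 in cluster 6, -0.69 in cluster 3 and -0.04 in cluster 1, and 0.34 when these clusters were weighted equally. The log2 ratio of mean FPKM was 0.50. Nes was detected in 13 of 37 Sox9Y440X/+ and 20 of 56 WT cells, with a difference of -0.18 (-0.54 against WT cells without Xist) and highest values of 36.4 and 98.1 FPKM.

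**Figure D2:**
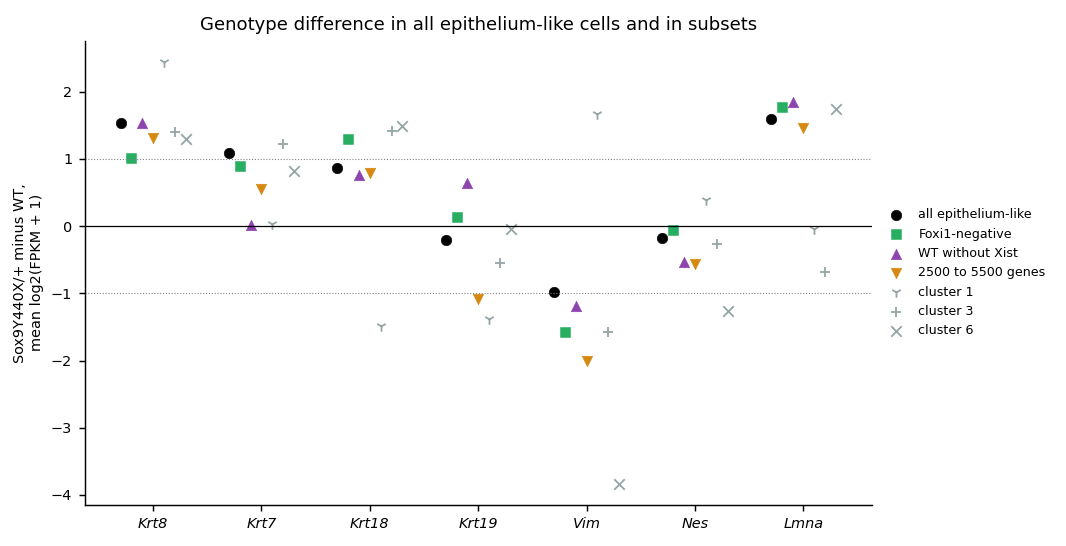
Sox9Y440X/+ minus WT difference of mean log2(FPKM + 1) for 7 genes in all epithelium-like cells (black) and in subsets (Foxi1-negative cells, WT cells without Xist, cells of 2500 to 5500 genes, and clusters 1, 3 and 6). Dotted lines mark 1 and -1. Krt8 stays above 1 in each subset, Krt7 drops to 0.01 without Xist-positive WT cells, and Vim runs from -3.83 to 1.67 over the clusters.

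In almost every epithelium-like cell the keratin pair was complete. At least 1 type I and 1 type II keratin were detected in 36 of 37 Sox9Y440X/+ and 53 of 56 WT cells, and the exceptions (1 and 3 cells) were all Foxi1-positive. The summed keratin level had a median of 2496 FPKM in Sox9Y440X/+ and 1292 FPKM in WT cells. Krt8 made up 47.5% of summed keratin FPKM in Sox9Y440X/+ and 39.3% in WT, Krt18 45.4% and 43.7%, Krt19 6.07% and 15.8%, and Krt7 0.96% and 1.11%. Krt8 and Krt18 lay within 2-fold of each other in 27 of 36 Sox9Y440X/+ and 26 of 52 WT cells that had both. The median log2 ratio of Krt8 to Krt18 was 0.02 and -0.14. Krt8 and Krt18 correlated at Pearson 0.67 and Spearman 0.63 across the 37 Sox9Y440X/+ cells and at 0.05 and 0.24 across the 56 WT cells, cells that share a genotype and vary in depth. For Krt19 the Pearson value in Sox9Y440X/+ was 0.47 with Krt8, 0.27 with Krt18 and 0.24 with Vim. In WT it was 0.24, -0.01 and 0.51. These are descriptions, and the differences between the genotypes in them were not tested.

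**Figure D3:**
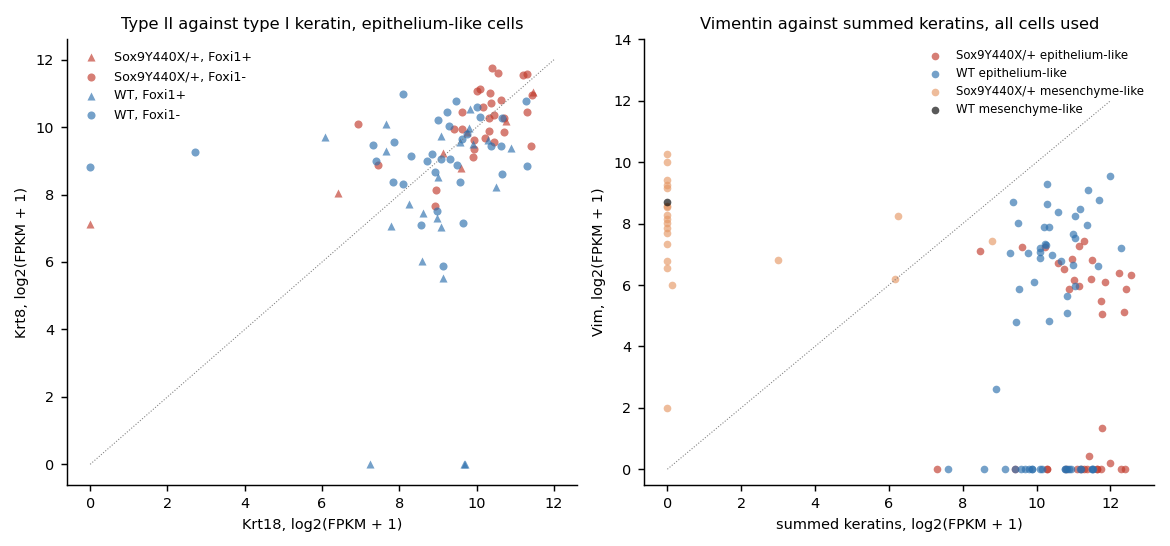
Left, Krt8 against Krt18 in the 37 Sox9Y440X/+ and 56 WT epithelium-like cells, with triangles for Foxi1-positive cells and a dotted line of equal levels. Right, Vim against summed keratins in all 115 cells; both axes are log2(FPKM + 1). The 3 WT cells without Krt8 and the Sox9Y440X/+ cell without Krt18 are triangles, the WT cell without Krt18 is a circle, and the epithelium-like cells all lie below the line of equal Vim and keratin.

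The third comparison addressed the Foxi1-positive cells, those with a Foxi1 level of at least 1 FPKM. They were 7 of 37 Sox9Y440X/+ and 22 of 56 WT epithelium-like cells, and none lay outside the epithelium. In WT, the Foxi1-positive cells had less Krt8, vimentin and lamin A/C than Foxi1-negative cells, while Krt18, Krt7, Krt19 and Nes differed by -0.17 to 0.29. No member was higher by 1 unit and 3 of 7 tested were lower, against 25.4% higher and 3.68% lower of 5868 genes. The Foxi1-positive WT cells had more genes detected (median 3964 against 2727.5), so the 3 lower members ran against the shift of all genes, whose median difference was 0.48.

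Krt8 had 0, 332 and 1497 FPKM (lowest, median, highest) in the 22 Foxi1-positive WT cells and 57.9, 572 and 2030 FPKM in the 34 Foxi1-negative ones, a difference of -1.80 (7.38 ± 3.29 against 9.17 ± 1.13). The ranges overlapped. All 3 WT epithelium-like cells in which Krt8 was listed at 0 were Foxi1-positive, with Foxi1 at 364, 1018 and 1726 FPKM and Krt18 at 820.2, 825 and 149 FPKM. In the same order they had 1101, 1775 and 3065 detected genes, and 1101 was the fewest in any epithelium-like cell. The part of gene number in these zeros was not tested. The zeros of these 3 cells enter the mean of the logs, and the log2 ratio of mean FPKM, which they weigh on less, was -0.65. Among WT cells without Xist the difference was -1.15. The cell with 1726 FPKM of Foxi1 was the one that had Krt23. Krt18 did not follow Krt8, with a median of 537 FPKM in Foxi1-positive and 583 FPKM in Foxi1-negative cells and a difference of 0.17.

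Vim was detected in 11 of 22 Foxi1-positive and 24 of 34 Foxi1-negative WT cells, with medians of 2.59 and 124 FPKM and a difference of -2.05. It was -3.23 in cells of 2500 to 5500 genes and -4.81 among WT cells without Xist. Lmna was detected in 13 of 22 and 24 of 34 cells, with medians of 14.52 and 73.3 FPKM and a difference of -1.53. In cells of 2500 to 5500 genes it was -0.27, so its call was not kept there. Krt7 differed by -0.14, and by -2.0 among WT cells without Xist. Krt19 differed by -0.17 and Nes by 0.29.

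In Sox9Y440X/+ cells the same members were lower in the Foxi1-positive cells, with Krt18 and Krt19 added. None of 7 was higher and 5 were lower by at least 1 unit, against 26.5% higher and 10.5% lower of 7664 genes. Lmna had the largest difference of the members, -4.19, and 0.013% of genes had a lower one. It was detected in 3 of 7 Foxi1-positive and 29 of 30 Foxi1-negative cells, with medians of 0.15 and 151 FPKM. The 7 values were 100.2, 68.8, 20.7, 0.15 and, in 3 cells, 0 FPKM. Leaving out each of the 7 cells in turn gave -4.89 to -3.78, and cells of 2500 to 5500 genes gave -4.24.

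The keratins of the 7 Foxi1-positive Sox9Y440X/+ cells ran in broadly the same order. Krt8 was at 2121, 1166, 933, 598, 445, 265 and 139 FPKM, and Krt18 in the same cells was at 2810, 1718, 853, 563, 777, 84.2 and 0 FPKM. Krt19 was at 349, 279.6 and 82.7 FPKM in the 3 cells highest in Krt8 and was listed at 0 in the other 4. The Krt8 difference was -1.002 and lay between -1.31 and -0.66 when single cells were left out. The Krt18 difference of -1.94 was -0.58 without the cell listed at 0, which had the lowest Krt8 as well. The Krt19 difference was -2.18, and -1.63 at the least when single cells were left out. Krt7 was detected in all 7 cells at 5.24 to 75.2 FPKM and in 23 of 30 Foxi1-negative cells, a difference of 0.71. Vim was detected in 3 of 7 and 18 of 30 cells, a difference of -1.13 that was -0.16 in cells of 2500 to 5500 genes. Nes was detected in 2 of 7 and 11 of 30 cells.

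**Figure D4:**
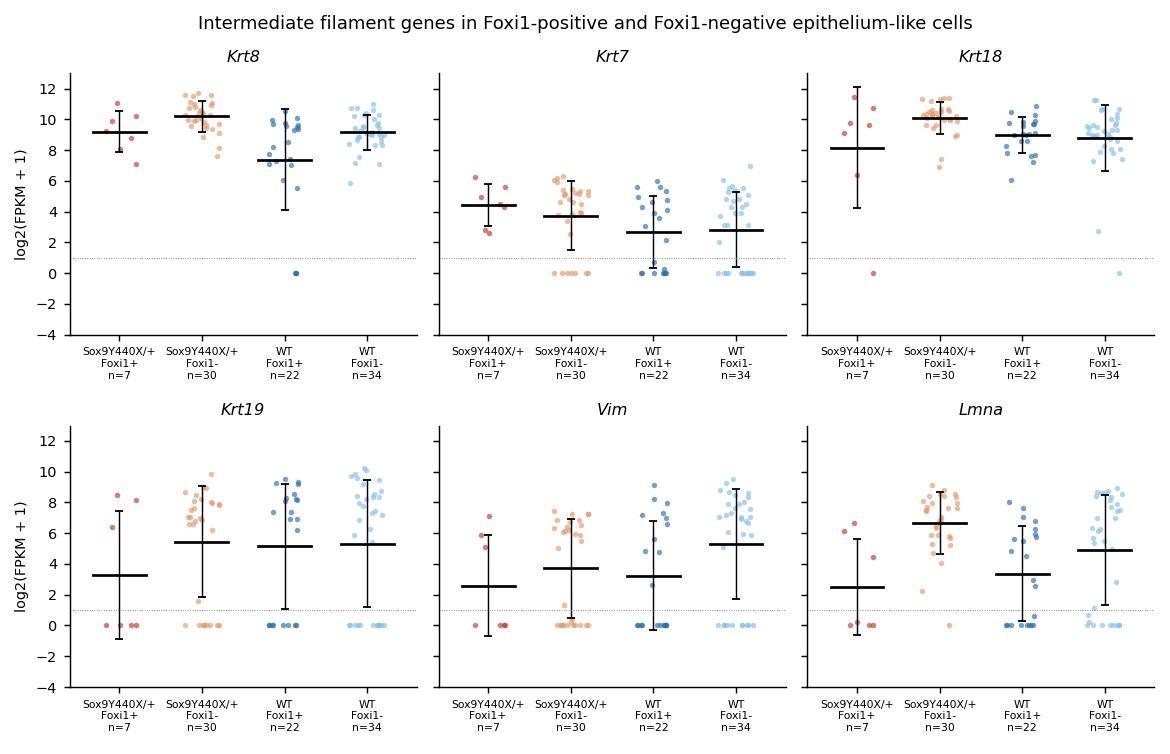
Level of 6 genes on the log2(FPKM + 1) axis in Foxi1-positive and Foxi1-negative epithelium-like cells of Sox9Y440X/+ (n = 7 and 30) and WT (n = 22 and 34). Points are cells, bars the mean, whiskers the SD over cells and the dotted line an FPKM of 1. The WT cells without Krt8 are in the Foxi1-positive group, and Lmna is detected in 3 of 7 Foxi1-positive against 29 of 30 Foxi1-negative Sox9Y440X/+ cells.

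Filament genes also varied with the level of Foxi1. At a limit of 100 FPKM of Foxi1, chosen after its values were seen, the Foxi1-positive cells divided into 5 high and 2 low Sox9Y440X/+ cells and 15 high and 7 low WT cells. Krt8 had a median of 173 FPKM in the 15 high WT cells and 758 FPKM in the 7 low ones, beside 572 FPKM in Foxi1-negative cells. Lmna was detected in 6 of 15 high and 7 of 7 low WT cells, Vim in 5 of 15 and 6 of 7, Krt19 in 7 of 15 and 7 of 7, and Nes in 3 of 15 and 6 of 7. The high WT cells differed from Foxi1-negative WT cells by -2.74 for Krt8, -3.31 for Vim, -2.84 for Lmna and -1.76 for Krt19, against 8.63% of genes lower by at least 1 unit. Krt18 differed by 0.06. In Sox9Y440X/+ the 5 high cells differed from the Foxi1-negative cells by -5.42 for Lmna, -4.18 for Krt19 and -3.12 for Krt18. Krt8 differed by -1.57 and Vim by -1.12, against 16.7% of genes lower by at least 1 unit. The Krt18 value includes the cell listed at 0. The high cells had fewer genes detected than the low ones, with medians of 3823 and 4417.5 in Sox9Y440X/+ and 3322 and 4695 in WT. The part of gene number in this division was not tested.

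**Figure D5:**
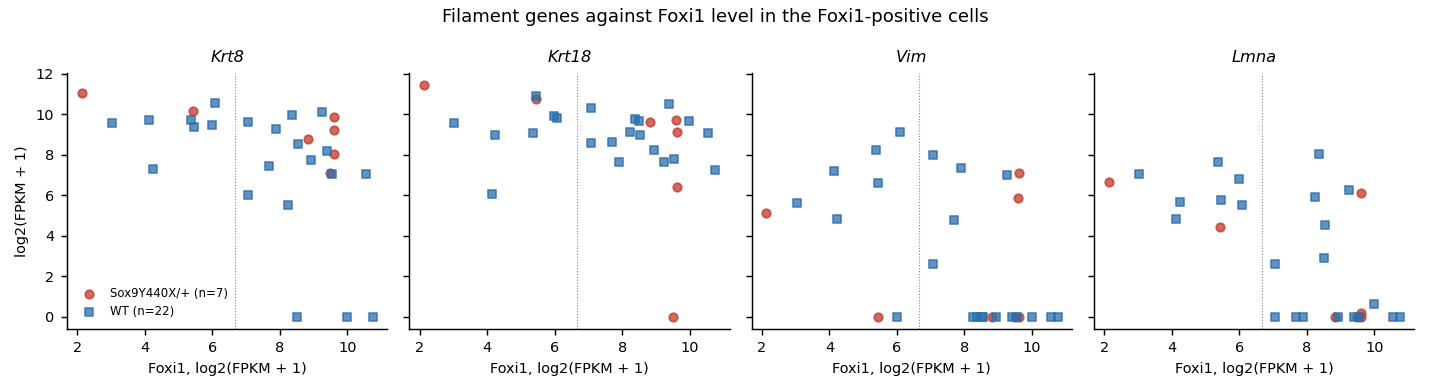
Krt8, Krt18, Vim and Lmna against Foxi1 in the 7 Sox9Y440X/+ and 22 WT Foxi1-positive cells, both axes log2(FPKM + 1), with a dotted line at 100 FPKM of Foxi1. Left of the line Lmna is detected in every cell; right of it Lmna is detected in 1 of 5 Sox9Y440X/+ and 6 of 15 WT cells, while Krt18 is detected in all but 1.

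Between the genotypes, the 7 Foxi1-positive Sox9Y440X/+ cells and the 22 WT ones differed most in Krt8, Krt7 and Krt19. Krt8 and Krt7 were higher and Krt19 was lower by at least 1 unit, against 26.1% higher and 10.1% lower of 7622 genes. With 7 members tested, these counts lie near the shares of all genes. The Krt8 and Krt7 differences were larger than those of 92.1% and 91.4% of genes, and 2.06% had a lower one than Krt19. Krt8 had 139, 598 and 2121 FPKM (lowest, median, highest) in Sox9Y440X/+ and 0, 332 and 1497 FPKM in WT, a difference of 1.81 that stayed at or above 1.5 when each Sox9Y440X/+ cell was left out. It was 1.25 against WT cells without Xist, and the log2 ratio of mean FPKM was 0.78. Krt7 was detected in 7 of 7 and 13 of 22 cells, with medians of 22.1 and 9.08 FPKM and a difference of 1.75, which was 1.5 against WT cells without Xist. Krt19 was detected in 3 of 7 and 14 of 22 cells, a difference of -1.88 that was -0.86 against WT cells without Xist. Krt18 differed by -0.81 with all 7 cells and by 0.55 without the cell listed at 0. Vim differed by -0.66, and by 0.08 against WT cells without Xist, Lmna by -0.88 and Nes by -0.40. In cluster 1, which held the 5 high Sox9Y440X/+ cells and 8 WT cells, Krt7 differed by 0.03, so its call was not kept there. Krt8 differed by 2.44 and Krt19 by -1.38 in that cluster. Its median log2 ratio of Krt8 to Krt18 was 0.11 in Sox9Y440X/+ and -1.17 in WT.

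Beside the 8 members, few other filament genes were found in the epithelium. Of 22 other keratins measured, 8 were detected in any epithelium-like cell and none in 25% of either genotype. Krt10, a type I keratin of differentiating epidermis, was detected in 9 of 37 Sox9Y440X/+ and 12 of 56 WT epithelium-like cells, and in 6 of 21 Sox9Y440X/+ mesenchyme-like cells. Krt17, a type I keratin of stratified epithelium and its appendages, was detected in 2 of 37 and 10 of 56 cells, at up to 55.9 and 859 FPKM. Krt6a was detected in 2 cells of each genotype, at up to 210.2 FPKM in Sox9Y440X/+ and 71.8 FPKM in WT. Of 11 other cytoplasmic filament genes, 3 (Prph, Nefl and Nefm) were detected in any epithelium-like cell, each in at most 3. The epidermis and periderm list had 0 to 3 of 10 markers per cell in both genotypes.

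Genes whose products anchor these filaments stayed within 1 unit between the genotypes when all epithelium-like cells were pooled. In subsets some passed 1 unit, beside 15.5% to 26.1% of all genes higher there and 2.58% to 24.7% lower. The subset counts thus do not mark these lists out from other genes. None of 6 lamina and nuclear envelope genes tested, 7 desmosome genes or 6 cytolinker and hemidesmosome genes passed 1 unit in epithelium-like cells. Of all 5957 genes tested, 13.5% were higher and 2.2% lower by that measure. The median differences of these lists, in that order, were 0.37, 0.54 and -0.11, beside 0.36 for all genes tested. Emd, which encodes the nuclear membrane protein emerin, differed by 0.96 and was detected in 12 of 37 Sox9Y440X/+ and 4 of 56 WT cells. Jup (plakoglobin), Ppl (periplakin), Pkp2 (plakophilin) and Dsp (desmoplakin), all of the desmosome, differed by 0.92, 0.91, 0.83 and 0.54. Plec, which encodes the linker plectin, differed by -0.16. In Foxi1-negative cells 5 of 19 tested genes of these lists were higher by 1 unit (Emd, Jup, Ppl, Itga6 and Cd151) and none was lower, against 21.5% higher and 2.58% lower of all genes. In Foxi1-positive cells 4 of 24 were higher (Lmnb2, Pkp4, Dsc2 and Macf1) and 3 lower (Syne2, Itga6 and Cd151), against 26.1% and 10.1%. In cluster 3, 6 of 27 were higher and 2 lower, against 15.5% and 12.6%, in cluster 6, 4 of 19 and 3, against 23.9% and 18%, and in cluster 1, 4 of 22 and 7, against 21.4% and 24.7%. Of 6 keratin chaperone and turnover genes tested, Hspb1, a small heat shock protein, was higher by 1.65, with a mean of 1883 FPKM and detection in 37 of 37 Sox9Y440X/+ cells, against 722 FPKM and 51 of 56 in WT.

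Between the classes, all 7 desmosome genes tested were higher in Sox9Y440X/+ epithelium-like than mesenchyme-like cells by at least 1 unit, against 24.9% of all genes. Their median difference was 1.94, beside 0.27 for all genes and 9.86 for Krt8. The lamina list ran the other way, with 1 of 9 tested higher and 4 lower, against 24.9% and 12.9% of all genes, and a median of -0.55, although Lmna itself was higher by 2.61. In Foxi1-positive against Foxi1-negative WT cells, 3 of 7 cytolinker and hemidesmosome genes and 1 of 6 lamina genes were higher by 1 unit and none was lower, against 25.4% higher and 3.68% lower of all genes, so the lamina share lay below that of all genes. Lmna differed by -1.53.

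Genes with the pattern most like each member were taken by Pearson correlation of log2(FPKM + 1) over the 93 epithelium-like cells, among 4197 genes detected in at least 25% of them. The cells come from both genotypes and differ in the number of genes detected (1101 to 5564), and the values are descriptions. Krt8 was followed most closely by Anxa2 (0.67), Rhoc (0.62) and Wfdc2 (0.56), and Lmna by Epha7 (0.51), Rhoc (0.50) and Mfap2 (0.50). The Spearman values in the same order were 0.58, 0.26 and 0.33 for Krt8 and 0.45, 0.31 and 0.49 for Lmna. Vim was followed by Capg (0.54), Mmp23 (0.52) and Hsp90b1 (0.52), and Krt19 by H2-D1 (0.52), Frrs1 (0.52) and Klk10 (0.50). For Krt7 the closest was Tpp2 (0.46), for Nes D8Ertd82e (0.39) and for Krt18 Cyr61 (0.38). Within the genotypes, the Pearson value with Foxi1 was -0.47 in Sox9Y440X/+ and -0.50 in WT for Krt8, -0.67 and -0.32 for Lmna, and -0.51 and 0.03 for Krt18.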

How the data were processed

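The authors deposited FPKM values of 48555 gene entries in 120 cells. HTSeq, Cufflinks, HISAT2, SAMtools 0.1.18 and the build mm10 are listed, without roles or settings, per the submitters' processing notes. Depth per cell is unknown, because FPKM carries no counts. The summed FPKM per cell was not rescaled, and ran from 344424 to 4.44e+06 (median 463017) in the 115 cells used. An exact 0 can be a failed estimate, as Gapdh was at 0 in 2 of the 115 cells used.

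Entries of 1 symbol were summed, and 99.3% of gene IDs matched GENCODE M21. Ward clustering (15 principal components, 1500 variable genes, no filament gene) gave 8 clusters, named from marker lists. Doublets were not called. The highest correlation between 2 cells was 0.59. Differences are of mean log2(FPKM + 1) with a pseudocount of 1, for genes found in 25% or more of a group's cells, and understate low genes. Limits on shares at 0 use 3 counts and cover counting error only. The calculation was tested on simulated data. Members and lists were chosen with earlier results of these data known. Named genes were the 8 members, the 3 genes most like each and up to 4 per list. Python 3.11.15, numpy 2.4.6, pandas 2.3.3 and SciPy 1.17.1 were used.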

Additional observations from a re-analysis of the deposited data

Results flagged for a closer look

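Among cells left out for having fewer than 1000 genes, 2 Sox9Y440X/+ cells held a member gene above the level of the WT cell left out, where both genes were listed at 0. Cell 18, with 140 genes in its label, had 933 FPKM of Krt8. Cell 21, with 460 genes in its label, had 109 FPKM of Lmna. Neither cell entered a comparison.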

How the results depend on the processing

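Of 20 member differences of at least 1 unit, recomputation gave 223 values, single-cell omissions and single clusters not counted, of which none changed sign, 157 changed by less than 1.5-fold and 66 by more. Between the genotypes in epithelium-like cells, 1 member passed 1 unit with a pseudocount of 10, against 3. Between Foxi1-positive and Foxi1-negative Sox9Y440X/+ cells, 3 passed with a pseudocount of 10 and 1 by the log2 ratio of mean FPKM, against 5. Between Foxi1-positive cells of the genotypes, 5 passed with a pseudocount of 0.1, in cells of 2500 to 5500 genes and at a Foxi1 limit of 10, and 6 without the highest cell of each group, against 3. Leaving out each of the 7 Foxi1-positive Sox9Y440X/+ cells gave 2 to 5 members in the comparison with Foxi1-negative cells and 3 to 6 in that with WT, the 2 without cell 28. The single-cell omissions, the equal weighting of clusters, the Foxi1-negative subset and the Foxi1 limit of 100 were chosen after seeing the data. Class sizes were the same with 5 or 12 clusters, 3000 variable genes or each cell's own marker counts. No paired analysis was possible because cell numbers only name cells. With 7 Foxi1-positive Sox9Y440X/+ cells, 1 cell can decide a difference. Within single clusters the Lmna difference between the genotypes of 1.59 was 1.74 in cluster 6, -0.69 in cluster 3 and -0.04 in cluster 1.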
